A study of Rattus norvegicus with 84 samples.

Results

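The genes described here encode potassium, sodium and calcium channel subunits of the rat hippocampus. They were taken by symbol from the array's probe-to-gene table: every Kcn gene, the numbered Scn alpha and beta subunits, and the Cacna, Cacnb and Cacng families. Of the 22523 probes on the array, 120 carried such a symbol. Kept were probes with a detection p-value under 0.01 on 7 or more of the 84 arrays, namely 72 probes for 70 genes, out of 11403 probes of any gene that met this rule, and another 45 channel genes of the array had no kept probe. Genes of any kind with a kept probe and a symbol numbered 8115 of 13337. The 48 probes that failed included 39 detected on no array. The kept probe with the fewest detections, Kcnj8, was detected on 8 arrays, and the failed probe with the most, Kcnh7, on 5. Of the 72 kept probes, 35 were detected on all 84 arrays and 9 on fewer than 28.

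The study used 28 male Fischer 344 × Brown Norway F1 hybrid (F344xBN) rats aged 7 months. Each rat received an intraperitoneal injection of SAHA, an inhibitor of histone deacetylases, at 50 mg/kg in DMSO, or the same volume of DMSO alone (vehicle), and was killed 90 min later. The maze rats (RPC in the labels) had been trained in a water maze over 8 days, and 1 week after that training had an RPC session of 17 trials that began 10 min after the injection and ended with a 60 s probe trial. The home cage rats (HC) had no maze training, so the RPC and HC groups differed in earlier training as well as in the session before death. CA1, CA3 and the dentate gyrus (DG) were dissected from fresh brain, and RNA of each was measured on an Illumina bead array, with 7 arrays in each of the 12 groups of region, drug and behaviour. The samples are bulk tissue, in which fewer cells of a type and less RNA per cell cannot be told apart.

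Voltage-gated potassium channels repolarise neurons and set how often they fire, sodium channels carry the upstroke of the action potential, and calcium channels link depolarisation to transmitter release, to dendritic signals and to transcription. Pyramidal neurons and granule cells of the hippocampus are known to differ in firing threshold, spike width and adaptation, properties that rest in part on their channel subunits. The set was named for voltage-gated channels, but the symbols cover more than that. Kcnj genes encode inward rectifiers, Kcnk genes leak channels, Kcnn, Kcnma, Kcnmb and Kcnt genes channels opened by calcium or sodium or their beta subunits, and the Cacng genes detected here are best known as auxiliary subunits of AMPA receptors.

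Promoters of 4 of the genes are printed because the results below turn on them: Kcnq5, Kcnh8 and Kcnj4 differed widely between regions, and Kcnc1 gave the one call after the maze. Each runs from 250 bases before to 50 bases after the transcription start in RefSeq's annotation of GRCr8, read 5′ to 3′ on the gene's strand, at chr9:31891232-31891531 (minus strand) for Kcnq5, chr9:5742433-5742732 (plus strand) for Kcnh8, chr7:112954498-112954797 (minus strand) for Kcnj4 and chr1:106038997-106039296 (plus strand) for Kcnc1. Capitals mark TGACG, the half-site bound by CREB family factors, and GGGCGG, the GC box bound by Sp factors, on either strand.
Kcnq5: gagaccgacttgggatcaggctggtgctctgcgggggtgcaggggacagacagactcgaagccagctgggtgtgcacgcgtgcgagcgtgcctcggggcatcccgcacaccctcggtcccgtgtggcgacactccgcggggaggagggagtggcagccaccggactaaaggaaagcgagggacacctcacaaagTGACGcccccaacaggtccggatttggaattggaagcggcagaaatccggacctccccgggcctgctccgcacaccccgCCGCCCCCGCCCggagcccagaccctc
Kcnh8: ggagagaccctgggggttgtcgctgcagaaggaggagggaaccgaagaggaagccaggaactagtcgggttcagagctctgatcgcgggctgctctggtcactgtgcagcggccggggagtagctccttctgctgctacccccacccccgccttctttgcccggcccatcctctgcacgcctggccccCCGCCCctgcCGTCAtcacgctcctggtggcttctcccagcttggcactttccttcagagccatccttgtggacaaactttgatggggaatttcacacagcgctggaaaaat
Kcnj4: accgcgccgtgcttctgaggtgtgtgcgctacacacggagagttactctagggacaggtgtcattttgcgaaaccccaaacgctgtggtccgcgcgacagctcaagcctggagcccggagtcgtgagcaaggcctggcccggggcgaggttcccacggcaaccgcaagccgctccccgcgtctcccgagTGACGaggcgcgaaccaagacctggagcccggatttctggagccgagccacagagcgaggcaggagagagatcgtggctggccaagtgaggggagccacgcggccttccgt
Kcnc1: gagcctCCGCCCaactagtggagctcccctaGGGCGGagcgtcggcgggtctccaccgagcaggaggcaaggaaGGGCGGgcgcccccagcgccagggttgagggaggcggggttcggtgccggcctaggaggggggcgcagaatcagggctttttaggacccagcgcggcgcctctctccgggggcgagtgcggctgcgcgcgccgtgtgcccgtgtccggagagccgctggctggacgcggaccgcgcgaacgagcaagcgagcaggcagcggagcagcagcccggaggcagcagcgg
RefSeq's table held promoters for 47 of the 70 genes, 55 in all. TGACG occurred in 11 of these 55 (20%) and in 21.2% of the 33469 promoters of the table. GGGCGG occurred in 30 of the 55 (54.5%) and in 33.1% of all promoters. The full palindrome TGACGTCA was in none of the 55 and in 1.83% of all promoters. The Kcnc1 promoter held 3 GC boxes, no TGACG and 74% G and C, while the Kcnj4 promoter held 1 TGACG and no GC box. A match of letters is a description of the sequence and not a site.

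Mean signal per array ran from 428 to 905, and 35.4% to 50.0% of probes were detected on an array. On 8 arrays the correlation with the other arrays of the same region lay more than 5 median absolute deviations under the median, 3 of them labelled CA1 and 5 labelled CA3, with a lowest correlation of 0.814. Those labelled CA3 were all RPC arrays, namely 3, 4 and 6 of vehicle and 4 and 6 of SAHA rats. In labelled CA3, low correlation and the maze therefore went together. Those labelled CA1 were array 5 of SAHA home cage, 6 of vehicle home cage and 1 of vehicle RPC rats. These 8 are called arrays of low correlation, and results that rest on them are given with and without them. The arrays labelled CA1 and DG went against their labels in their markers. Of 7 tested CA1 pyramidal neuron markers, 6 were lower on the arrays labelled CA1 than on those labelled DG (median log2 difference -2.65), and of 6 granule cell markers, 5 were higher (median 1.23). The mean log2 intensity of Wfs1, a CA1 pyramidal gene, was 6.86 and 10.65 in labelled CA1 and DG, and the granule cell transcription factor Prox1 had detections on all 28 and on 4 arrays of these regions. All 6 CA3 markers were higher in labelled CA3 than labelled DG (median 0.96). Regions are therefore named throughout as labelled. Labelled CA1 was lower than labelled CA3 in 10 of 11 oligodendrocyte markers (median -1.47) and lower than labelled DG in all 11 (median -1.44), and the log2 of their summed level ran from 12.84 to 14.44 in labelled CA1, from 14.11 to 15.49 in labelled CA3 and from 14.24 to 15.32 in labelled DG. Of 7 interneuron markers, 6 were lower in labelled CA1 than labelled CA3 (sums 12.31 to 13.45 against 12.80 to 13.57) and 5 lower than in labelled DG (12.62 to 13.53). Of 7 astrocyte markers, 5 were higher and 2 lower in labelled CA1 than labelled CA3 (15.47 to 15.77 against 15.27 to 15.54), and all 7 were lower in labelled CA3 than labelled DG (15.66 to 15.96). Of 8 microglial markers, 7 were lower in labelled CA1 and 6 in labelled CA3 than labelled DG. No marker of the oligodendrocyte, interneuron or astrocyte lists was undetected on every array of a region. The part of these cells in the differences between regions below was not tested.

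The first comparison asks how the channel genes differed between the dissected regions, over 28 arrays a region. Levels are log2 intensities after background correction and quantile normalization, a difference is a difference of mean log2 levels from limma, and a probe was called at a Benjamini-Hochberg adjusted p under 0.05 over all 11403 probes. Between labelled CA1 and labelled CA3, 56 of the 72 probes (77.8%) were called, 27 higher and 29 lower in labelled CA1, against 80.7% of all probes (39.9% higher and 40.8% lower). Between labelled CA1 and labelled DG, 52 (72.2%) were called, 31 higher and 21 lower, against 72.4% of all (36.3% and 36.1%). Between labelled CA3 and labelled DG, 54 (75%) were called, 28 higher and 26 lower in labelled CA3, against 75.4% of all (39.3% and 36.1%). The shares of channel probes called lay near the background.

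Differences over 2-fold were found for 15 channel probes between labelled CA1 and CA3 (20.8%, against 9.53% of all probes), for 8 between labelled CA1 and DG (11.1% against 4.6%) and for 9 between labelled CA3 and DG (12.5% against 6.12%). In all, 21 of the 72 probes passed 2-fold in at least 1 of the 3 comparisons. The median size of the log2 difference over the channel probes was 0.47, 0.28 and 0.36 in the 3 comparisons, beside 0.33, 0.25 and 0.27 over all probes. The 28 arrays of one region lay wholly above or below the 28 of the other for 7 channel probes between labelled CA1 and CA3 (9.72%, against 7.13% of all probes), for 8 between labelled CA1 and DG (11.1% against 5.41%) and for 9 between labelled CA3 and DG (12.5% against 5.36%). Scn2b and Cacnb1 were the probes with no called difference. The 8 probes over 2-fold and the 8 without overlap between labelled CA1 and DG both include Kcnip1 and Kcnt1. These were detected on 2 and 1 of the 28 arrays labelled CA1, so their levels there were mostly not above background.

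The sign of these differences was also read within each drug and behaviour group. These groups make up the same arrays, so a called probe is likely to keep its sign in them. The counts are a description, with no count over all probes beside them. The sign was the same in all 4 combinations of drug and behaviour for 55 of the 56 probes called between labelled CA1 and CA3, for 50 of 52 between labelled CA1 and DG, and for 51 of 54 between labelled CA3 and DG. Without the 8 arrays of low correlation, 56, 57 and 54 probes were called, 52, 50 and 51 of them the same probes as with all arrays, and none of these changed sign. The split of higher and lower calls depended on the scaling. When arrays were scaled to a common median in place of quantile normalization, the median over all probes shifted to -0.38 between labelled CA1 and CA3, to -0.19 between labelled CA1 and DG and to 0.20 between labelled CA3 and DG. The calls were then 21 higher and 42 lower between labelled CA1 and CA3, and 19 higher and 36 lower between labelled CA1 and DG. With the authors' z-scores, 24 were higher and 32 lower between labelled CA1 and DG. The called probes whose sign turned under either scaling all had log2 differences of 0.28 or less in size.

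**Figure D1:**
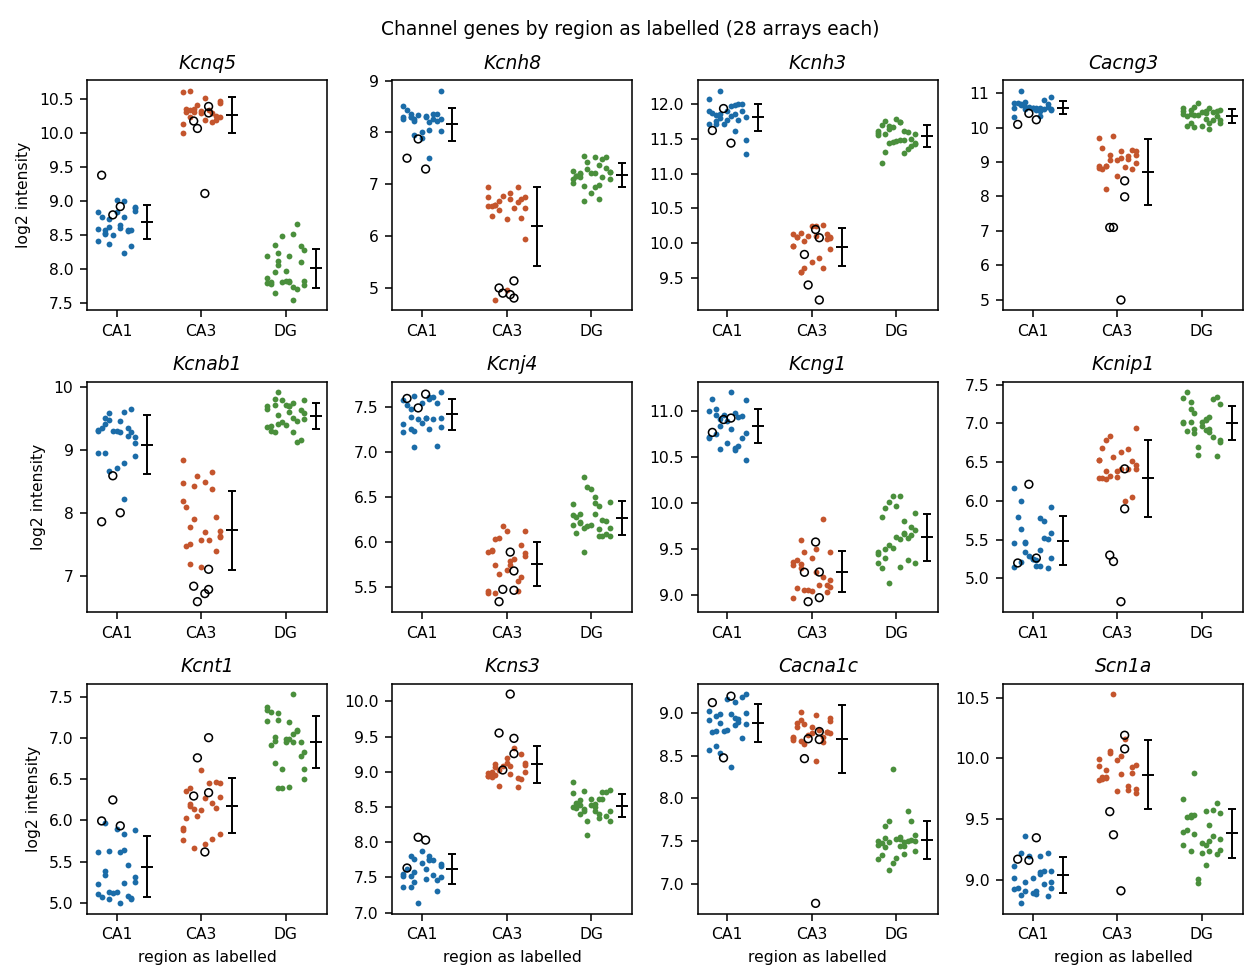
Level (log2 intensity, vertical axis) of 12 channel genes in the 28 arrays of each region as labelled (horizontal axis); each filled point is 1 array, open black circles are the arrays of low correlation, and the bar beside each column is the mean with its SD. Kcnq5 runs from 9.11 to 10.62 in labelled CA3 and from 7.54 to 8.66 in labelled DG, and Kcnj4 in labelled CA1 lies above every array of the other regions.

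The Kcnq and Kcnh families, which carry the M-current and the Eag, Erg and Elk currents, held the widest differences. Kcnq5, a subunit of the M-current channel that restrains repetitive firing, ran from 9.11 to 10.62 in labelled CA3 (median 10.31), from 8.24 to 9.38 in labelled CA1 (median 8.64) and from 7.54 to 8.66 in labelled DG (median 7.91). Every array labelled CA3 lay above every array labelled DG, while labelled CA1 lay between and overlapped both. Kcnq5 was 4.79-fold higher in labelled CA3 than labelled DG (log2 difference 2.26, SE 0.07, adjusted p = 7.03e-43), 2.98-fold higher than in labelled CA1 (adjusted p = 2.38e-33), and 1.61-fold higher in labelled CA1 than labelled DG (adjusted p = 5.56e-14).

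Kcnh3 and Kcnh8, both of the Elk branch, were lowest in labelled CA3. Kcnh3 ran from 9.18 to 10.25 in labelled CA3 (median 10.06), below every array of labelled CA1 (11.28 to 12.19, median 11.83) and of labelled DG (11.14 to 11.78, median 11.56). It was 3.65-fold lower in labelled CA3 than labelled CA1 (log2 difference 1.87 for labelled CA1 less CA3, SE 0.05, adjusted p = 3.5e-47) and 3.03-fold lower than in labelled DG (adjusted p = 2.91e-42). Kcnh8 ran from 7.29 to 8.81 in labelled CA1 (median 8.26), from 6.68 to 7.54 in labelled DG (median 7.20) and from 4.77 to 6.96 in labelled CA3 (median 6.56), where 21 of 28 arrays detected it. Labelled CA1 and labelled CA3 did not overlap for Kcnh8, and the difference was 3.93-fold (log2 1.98, SE 0.12, adjusted p = 4.25e-25), or 1.81 on the log2 scale without the arrays of low correlation. A further Kcnh8 probe on the array was detected nowhere.

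Kcnh1, the Eag channel, was instead low in labelled DG, at 8.56 to 9.73 (median 9.19), below every array of labelled CA1 (9.88 to 10.47) and labelled CA3 (10.17 to 10.91). It was 2.11-fold and 2.27-fold higher in those regions (adjusted p = 3.84e-32 and 1.39e-34). Kcnh1 also differed by -0.11 between labelled CA1 and CA3 (adjusted p = 0.0429), a call lost without the arrays of low correlation (adjusted p = 0.244). Kcnh6, an Erg channel, was 2.19-fold higher in labelled CA3 than labelled CA1 (adjusted p = 5.06e-28) and 1.81-fold higher than in labelled DG. Kcnh2, also an Erg channel, was detected on 4 arrays labelled CA1, 26 labelled CA3 and 28 labelled DG, so its level in labelled CA1 was mostly not above background.

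The silent subunits of the Kcng, Kcns and Kcnv families form no channel on their own and join Kcnb subunits to change their gating. Of their 6 probes, all were called between labelled CA1 and CA3, 3 higher and 3 lower, beside 80.7% of all probes called. Kcng1 ran from 10.47 to 11.20 in labelled CA1 (median 10.87), above every array of labelled CA3 (8.93 to 9.83, median 9.25) and labelled DG (9.13 to 10.08, median 9.63). Its differences were 2.99-fold (SE 0.06 on the log2 scale, adjusted p = 3.22e-39) and 2.31-fold (adjusted p = 1.49e-31). Kcns3 showed the opposite order of CA1, running from 7.13 to 8.07 in labelled CA1, below every array of labelled DG (8.10 to 8.86) and of labelled CA3 (8.79 to 10.11). It was 2.81-fold lower in labelled CA1 than labelled CA3 (adjusted p = 5.69e-39) and 1.87-fold lower than in labelled DG (adjusted p = 2.24e-25). Kcnv1 was 2.06-fold higher in labelled CA3 than labelled CA1 (adjusted p = 6.68e-23) and 2.32-fold higher than in labelled DG (adjusted p = 3.61e-26). Kcns2 was 2.16-fold higher in labelled CA1 than labelled CA3 (log2 1.11, or 0.87 without the arrays of low correlation).

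Kcng2 and Kcns1 depended more on the arrays of low correlation. Kcng2 was 0.92 higher in labelled CA1 than labelled CA3 with all arrays and 0.57 without those arrays, both called. Between labelled CA3 and DG its difference was 0.08 with all arrays (adjusted p = 0.658) and 0.47 without them (adjusted p = 0.000256). Kcns1 differed by -0.15 between labelled CA1 and CA3 (adjusted p = 0.0207), and by -0.08 without them (adjusted p = 0.136), while it was 0.58 higher in labelled CA3 than labelled DG.

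Kcnb2, a pore-forming partner of the silent subunits, was measured on few arrays. It was detected on 10 arrays labelled CA1, 14 labelled DG and 0 labelled CA3. Its levels were thus mostly not above background in labelled CA1 and on no array above it in labelled CA3. The probe was thus kept only through its detections in the other regions. Its mean log2 intensities in labelled CA1 and CA3 were 5.96 and 5.34 (limma, adjusted p = 8.3e-17). That p-value is of a difference largely between values not above background, so no fold is given.

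The pore-forming Kcna, Kcnb, Kcnc and Kcnd genes were measured by 11 probes. Of these, 6 were higher in labelled CA3 than labelled CA1 (Kcnc1, Kcnd1, Kcna6 and the 3 probes of 1 gene, Kcnc2) and 1, Kcnb2, was lower. Of all probes, 40.8% were higher and 39.9% lower in labelled CA3. Kcna6 was detected on 10, 18 and 28 arrays of labelled CA1, CA3 and DG, and Kcnb2 on no array labelled CA3. Against labelled DG, 7 were higher and 2, Kcnb2 and Kcnd2, lower in labelled CA3, beside 39.3% and 36.1% of all probes. Neither majority turned under median scaling or with z-scores. Between labelled CA1 and DG the 11 split 4 higher and 4 lower, beside 36.3% and 36.1% of all probes. This split became 1 higher and 7 lower under median scaling. Kcnc2, of the Shaw family whose fast closing allows rapid firing, had 3 probes, and all 3 were highest in labelled CA3. Its brightest probe ran from 11.84 to 12.61 there, above every array of labelled CA1 (11.05 to 11.60) and of labelled DG (11.00 to 11.73). The difference was 1.65-fold from labelled CA1 (adjusted p = 2.13e-24) and 1.55-fold from labelled DG (adjusted p = 1.01e-20), while labelled CA1 and DG did not differ by the test (adjusted p = 0.0544). The other Kcnc2 probes differed by -1.10 and -0.56 between labelled CA1 and CA3, so the probes of this gene had the same sign and unequal sizes.

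Kcnc1, of the same family, was 1.41-fold higher in labelled CA3 than labelled CA1 (adjusted p = 1.3e-22) and 1.39-fold higher than in labelled DG. Kcnd2, which carries the A-type current of dendrites, was highest in labelled DG. It ran from 11.11 to 12.12 in labelled DG (median 11.72), from 10.67 to 11.47 in labelled CA1 (median 11.13) and from 10.84 to 11.54 in labelled CA3 (median 11.03). It was 1.5-fold higher in labelled DG than labelled CA1 (log2 difference -0.58 for labelled CA1 less DG, SE 0.06, adjusted p = 2.2e-14) and did not differ by the test between labelled CA1 and CA3 (adjusted p = 0.984). Kcna4, an A-type channel of the Shaker family, was 1.71-fold higher in labelled CA1 than labelled DG (adjusted p = 5.32e-11) and differed by 0.19 from labelled CA3 (adjusted p = 0.0601), or by 0.29 without the arrays of low correlation (adjusted p = 0.00265). Kcna1 was detected on 6, 5 and 4 arrays of labelled CA1, CA3 and DG. Kcna6, Kcnd1 and Kcnd3 had differences of at most 0.47 in size. Kcna2 was detected on no array and is not a member.

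Most auxiliary subunits of these channels went the other way. Of 7 probes for Kcnab and Kcnip genes, 5 were higher and 1, Kcnip1, lower in labelled CA1 than labelled CA3. Of all probes, 39.9% were higher and 40.8% lower. In labelled CA3, 5 were lower and 1 higher than in labelled DG, beside 36.1% and 39.3% of all probes. The majorities were the same under the other scalings. Kcnab3, among those higher in labelled CA1, was detected on 2, 4 and 7 arrays of labelled CA1, CA3 and DG. Its levels were thus mostly not above background. Kcnab1, a beta subunit that speeds the closing of Kcna channels, ran from 6.60 to 8.84 in labelled CA3 (median 7.67), from 7.86 to 9.64 in labelled CA1 (median 9.29) and from 9.12 to 9.91 in labelled DG (median 9.57). Labelled CA3 lay wholly below labelled DG and partly below labelled CA1. The differences were 3.51-fold from labelled DG (log2 -1.81, SE 0.13, adjusted p = 6.54e-22) and 2.56-fold from labelled CA1 (adjusted p = 4.4e-16). Kcnab2 was 1.56-fold and 1.41-fold lower in labelled CA3 than labelled DG and CA1.

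The Kcnip genes encode calcium-binding partners of Kcnd channels. Kcnip3, also known as the transcriptional repressor DREAM, was 2.15-fold lower in labelled CA3 than labelled DG (adjusted p = 1.32e-18) and 2.06-fold lower than in labelled CA1 (adjusted p = 9.44e-18). Kcnip4 was 2.11-fold lower in labelled CA3 than labelled DG (log2 -1.08, or -0.74 without the arrays of low correlation). Kcnip1 had another order, with 5.13 to 6.21 in labelled CA1 (median 5.41, detected on 2 arrays), 4.70 to 6.93 in labelled CA3 (median 6.41, 24 arrays) and 6.58 to 7.40 in labelled DG (median 7.01). All arrays labelled DG lay above all labelled CA1 (adjusted p = 2.41e-24), where the gene was mostly not above background, so no fold is given. Kcnip1 was 1.64-fold higher in labelled DG than labelled CA3 (adjusted p = 6.3e-10). Kcnip2 and Kcnab3 differed by at most 0.28.

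**Figure D2:**
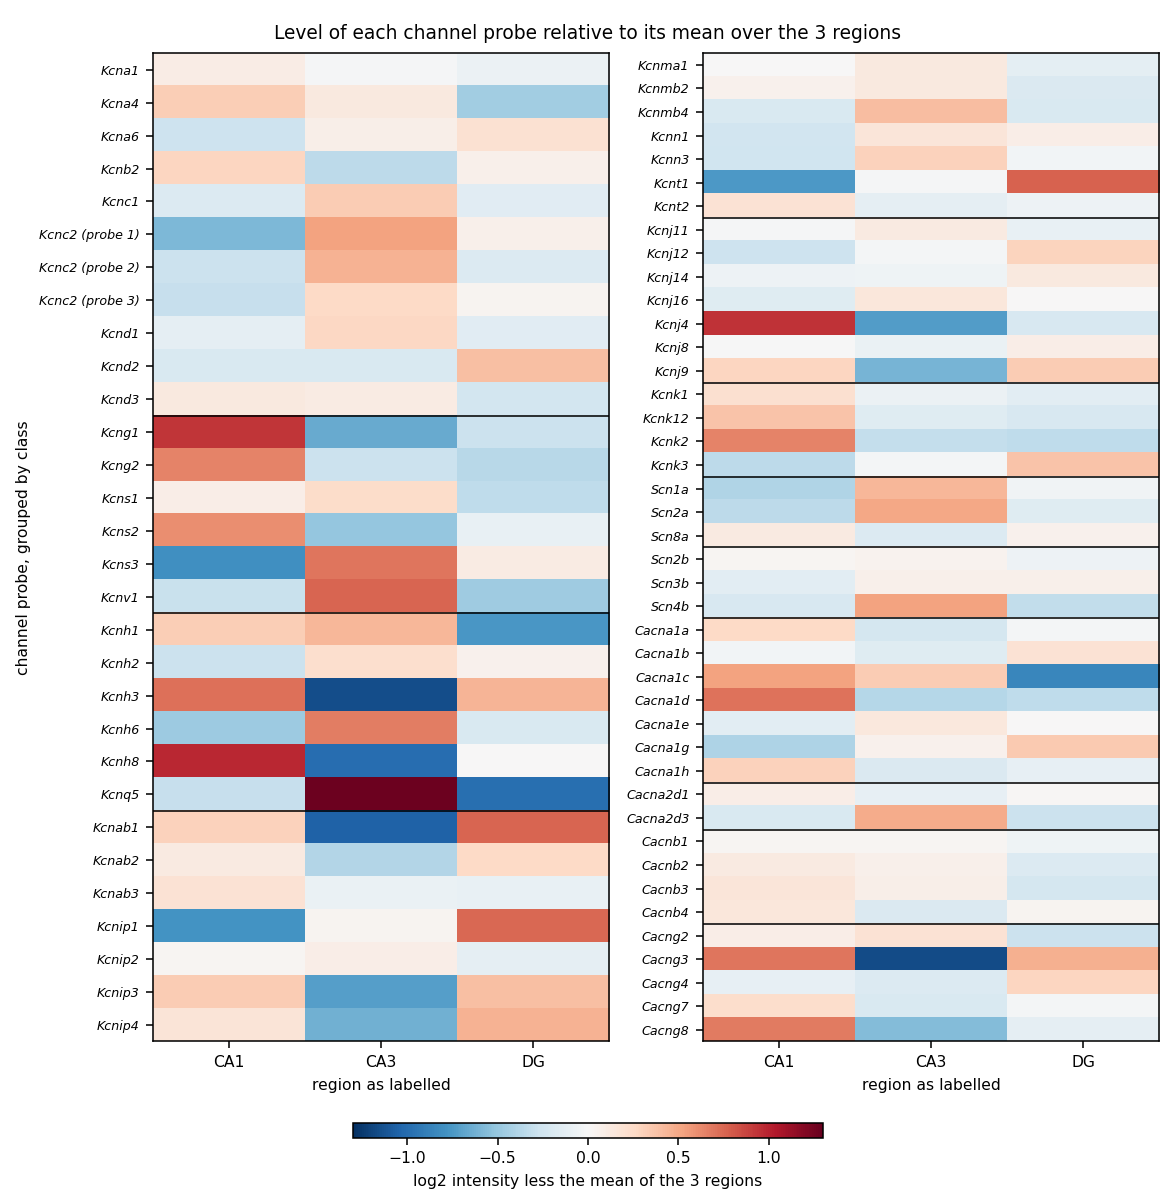
Level of each of the 72 channel probes (vertical axis, grouped by class) in each region as labelled (horizontal axis), as log2 intensity less the probe's mean over the 3 regions; red is above and blue below that mean. Kcnq5 stands out as high in labelled CA3, and Kcnh3, Kcnh8, Cacng3 and Kcnab1 as low there.

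Channels opened by calcium or sodium and their beta subunits were measured by 7 probes. In labelled CA1, 4 were lower and 1 higher than in labelled CA3, a majority that held under the other scalings, beside 40.8% of all probes lower and 39.9% higher. Against labelled DG, 3 were lower and 2 higher in labelled CA1, beside 36.1% and 36.3% of all probes. In labelled CA3 against labelled DG 4 were higher and 1 lower, beside 39.3% and 36.1% of all probes. This split turned to 2 higher and 3 lower with z-scores. Kcnt1, the sodium-activated channel, was detected on 1 array labelled CA1, 24 labelled CA3 and 28 labelled DG, with ranges of 4.99 to 6.25, 5.62 to 7.00 and 6.39 to 7.53. Labelled CA1 and DG did not overlap, and Kcnt1 was higher in labelled DG (adjusted p = 3.16e-25) and in labelled CA3 (adjusted p = 3.77e-11) than in labelled CA1, with no fold given since nearly all arrays labelled CA1 were not above background. Between the other regions it was 1.71-fold higher in labelled DG than labelled CA3 (adjusted p = 9.15e-12). Kcnmb4, the neuronal beta subunit of the large-conductance channel, was 1.52-fold higher in labelled CA3 than labelled CA1 (adjusted p = 5.66e-18). Kcnma1, the pore of that channel, was detected on 3, 10 and 4 arrays of labelled CA1, CA3 and DG, and differed by at most 0.25. Kcnn3, a small-conductance channel that shapes the afterhyperpolarisation, was 1.47-fold higher in labelled CA3 than labelled CA1. Kcnn1, Kcnt2 and Kcnmb2 had differences of at most 0.41 in size. Kcnn1 was detected on 5, 24 and 28 arrays of labelled CA1, CA3 and DG. Kcnn1 and Kcnt1, both mostly not above background in labelled CA1, are among the 4 probes lower there than in labelled CA3.

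Among the inward rectifiers, 7 probes for Kcnj genes, 2 were higher and 2 lower in labelled CA1 than labelled CA3, beside 39.9% and 40.8% of all probes. Kcnj4, which holds neurons near their resting potential, ran from 7.05 to 7.66 in labelled CA1 (median 7.38), from 5.34 to 6.18 in labelled CA3 (median 5.77, detected on 11 arrays) and from 5.89 to 6.72 in labelled DG (median 6.23). Every array labelled CA1 lay above all others. The difference was 3.16-fold from labelled CA3 (log2 1.66, SE 0.05, adjusted p = 2.91e-43) and 2.22-fold from labelled DG (adjusted p = 1.04e-32). Kcnj9, a subunit of channels opened by G proteins, was lower in labelled CA3, at 6.11 to 7.32 against 6.76 to 8.18 in labelled CA1 and 7.34 to 7.91 in labelled DG, by 1.83-fold and 1.9-fold (adjusted p = 5.33e-16 and 7.69e-17). Labelled CA3 lay wholly below labelled DG for this gene. Kcnj12 was 1.48-fold higher in labelled DG than labelled CA1 (adjusted p = 2.92e-11), with detections on 28 and 13 arrays of these regions. Kcnj11, Kcnj14 and Kcnj16 differed by at most 0.31. Kcnj8, the vascular ATP-sensitive channel, was detected on 0, 1 and 7 arrays of labelled CA1, CA3 and DG. Kcnj3 was detected on no array.

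The leak channels were measured by 4 probes. Kcnk2, a channel opened by stretch and lipids, ran from 9.39 to 10.23 in labelled CA1, above every array labelled DG (8.28 to 9.25), and overlapped labelled CA3 (8.15 to 9.77). It was 1.97-fold higher in labelled CA1 than labelled DG (adjusted p = 8.35e-20) and 1.95-fold higher than in labelled CA3 (adjusted p = 1.35e-19). Kcnk12 was higher in labelled CA1 by 0.52 and 0.58. Kcnk1 was higher there by 0.28 and 0.35, a direction that turned against labelled CA3 under median scaling. Kcnk3 was detected on 0 arrays labelled CA1, 1 labelled CA3 and 14 labelled DG, so it has no fold here.

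The sodium channel alpha subunits split. Scn1a ran from 8.91 to 10.53 in labelled CA3 (median 9.88), from 8.81 to 9.36 in labelled CA1 (median 9.01) and from 8.98 to 9.88 in labelled DG (median 9.37), and all 3 regions overlapped. It was 1.77-fold higher in labelled CA3 than labelled CA1 (log2 -0.82 for labelled CA1 less CA3, SE 0.06, adjusted p = 7.31e-22) and 1.4-fold higher than in labelled DG. Scn1a is known as the main sodium channel of fast-spiking interneurons. Scn2a, which prevails in axons of principal neurons, was likewise highest in labelled CA3, by 1.8-fold over labelled CA1 (adjusted p = 1.28e-18) and 1.57-fold over labelled DG (adjusted p = 1.44e-13). Scn8a was instead 1.23-fold lower in labelled CA3 than labelled CA1 (adjusted p = 0.000239).

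Among the beta subunits, Scn4b, which is linked to the resurgent sodium current, ran from 8.45 to 9.92 in labelled CA3, wholly above labelled DG (7.63 to 8.41) and overlapping labelled CA1 (7.75 to 8.53). It was 1.79-fold and 1.65-fold higher in labelled CA3 than labelled DG and CA1 (adjusted p = 1.34e-19 and 7.94e-17). Scn3b was 0.21 lower in labelled CA1 than labelled CA3, a sign that turned with z-scores. Scn2b had ranges of 5.50 to 7.29, 5.83 to 7.47 and 5.61 to 7.08 in labelled CA1, CA3 and DG, which overlapped in all 3 regions.

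The pore-forming calcium channel genes were led by the L-type pair. Cacna1c ran from 7.16 to 8.34 in labelled DG (median 7.49), below every array labelled CA1 (8.37 to 9.22, median 8.90), while labelled CA3 ran from 6.77 to 9.01 (median 8.76). It was 2.58-fold lower in labelled DG than labelled CA1 (log2 1.37, SE 0.07, adjusted p = 3.53e-28) and 2.27-fold lower than in labelled CA3 (adjusted p = 2.21e-24). Its difference between labelled CA1 and CA3 (0.19, adjusted p = 0.0178) was lost without the arrays of low correlation (adjusted p = 0.0841) and turned in sign under median scaling. Cacna1d, the other L-type gene, was 2.11-fold and 2.04-fold higher in labelled CA1 than labelled CA3 and DG (adjusted p = 5.52e-27 and 1.33e-25), with no called difference between the latter regions. The T-type genes split. Cacna1g was 1.67-fold lower in labelled CA1 than labelled DG (adjusted p = 1.55e-12), while Cacna1h was 0.49 higher in labelled CA1 than labelled CA3 and 0.41 higher than in labelled DG. Cacna1a (P/Q-type, detected on 11, 8 and 8 arrays), Cacna1b (N-type) and Cacna1e (R-type) differed by at most 0.49. Over the 7 Cacna1 probes, 4 were higher and 2 lower in labelled CA1 than labelled CA3, beside 39.9% and 40.8% of all probes. That majority became 2 higher and 3 lower under median scaling.

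The auxiliary calcium channel subunits differed less. Cacna2d3 was 1.7-fold higher in labelled CA3 than labelled DG (adjusted p = 4.87e-28), with every array labelled CA3 (8.93 to 9.72) above every array labelled DG (8.36 to 8.75), and 1.59-fold higher than in labelled CA1 (adjusted p = 2.3e-25). Cacna2d1 differed by at most 0.19 in size, and its sign between labelled CA1 and CA3 turned under median scaling. The 4 Cacnb probes had differences of at most 0.38 in size.

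The Cacng genes, as partners of AMPA receptors, set their trafficking and kinetics. Cacng3 ran from 4.99 to 9.77 in labelled CA3 (median 8.92), below every array of labelled CA1 (10.09 to 11.07, median 10.57) and of labelled DG (9.95 to 10.72, median 10.38). The difference was 3.63-fold from labelled CA1 (log2 1.86, SE 0.15, adjusted p = 1.57e-19) and 3.09-fold from labelled DG (adjusted p = 1.69e-16), and 1.55 and -1.27 on the log2 scale without the arrays of low correlation. Cacng8 was 2.37-fold higher in labelled CA1 than labelled CA3 (log2 1.24, or 0.90 without those arrays), and its difference between labelled CA3 and DG (adjusted p = 0.00716) was lost without them (adjusted p = 0.591). Cacng2, known as stargazin, was 0.47 higher in labelled CA3 than labelled DG (1.38-fold, adjusted p = 8.71e-15), and its difference of -0.10 between labelled CA1 and CA3 (adjusted p = 0.0371) was lost without those arrays (adjusted p = 0.554). Cacng7 was 0.43 higher in labelled CA1 than labelled CA3, with detections on 15 and 13 arrays of these regions. Cacng4 was detected on 1, 2 and 19 arrays of labelled CA1, CA3 and DG.

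A list of 28 other channel and channel partner genes was read beside the set, of which 13 were tested. Between labelled CA1 and CA3, 5 were called higher and 7 lower (median -0.23), beside 39.9% and 40.8% of all probes. Between labelled CA1 and DG the calls were 6 and 5 (median 0.06), beside 36.3% and 36.1%. Between labelled CA3 and DG they were 6 and 6 (median 0.01), beside 39.3% and 36.1%. Dpp10 and Dpp6, which join Kcnd channels, had mean log2 intensities of 5.56 and 8.87 in labelled CA1, 7.89 and 7.86 in labelled CA3, and 7.42 and 8.81 in labelled DG. Dpp10 was lowest in labelled CA1, where 2 arrays detected it, and Dpp6 in labelled CA3. Rrad, Gem and Fgf14 of the list were detected on 2, 0 and 5 arrays labelled CA1. Pex5l, the HCN partner also called TRIP8b, was at 7.43, 8.22 and 9.94 in labelled CA1, CA3 and DG.

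The next comparison asks what SAHA did to the channel genes 90 min after injection, in home cage and in maze rats of each region, over 61, 66 and 70 testable channel probes in labelled CA1, CA3 and DG and 7 arrays a group. By limma, 0 channel probes were called in any of the 6 contrasts. The share of all probes called was 0.0101% and 0.0605% in labelled CA1 (home cage and RPC), 0.00944% and 0% in labelled CA3, and 0.0276% and 0.0829% in labelled DG. At an unadjusted p under 0.05 the channel probes numbered 3 and 7 in labelled CA1 (4.92% and 11.5%, against 7.16% and 10.6% of all), 1 and 6 in labelled CA3 (1.52% and 9.09%, against 0.491% and 5.08%), and 4 and 1 in labelled DG (5.71% and 1.43%, against 6.47% and 6.35%).

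The sizes were small beside those between regions. Over the channel probes the SAHA difference ran from -0.28 to 0.39 in home cage and from -0.53 to 0.44 in RPC rats of labelled CA1, from -0.30 to 0.21 and from -0.48 to 0.56 in labelled CA3, and from -0.20 to 0.32 and from -0.28 to 0.26 in labelled DG. The probes nearest to a call in labelled CA1 were Scn1a in home cage rats (0.21, adjusted p = 0.552) and the T-type channel Cacna1h in RPC rats (0.44, adjusted p = 0.332), followed there by Kcng1 (-0.22, adjusted p = 0.373) and Kcnd2 (-0.29, adjusted p = 0.388). In labelled CA3 they were Kcnd1 in home cage rats (0.14, adjusted p = 1) and, in RPC rats, Kcnh3 (-0.34), Cacna1g (-0.48) and Kcns3 (-0.32), each with an adjusted p of 0.642. In labelled DG they were Kcnip1 in home cage rats (0.27, adjusted p = 0.67) and Kcnj4 in RPC rats (-0.21, adjusted p = 0.724). None of these misses shows that SAHA left a gene as it was.

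The drug by behaviour interaction, which tests whether the SAHA difference was another in maze rats, also called 0 channel probes in each region, against 0.0101%, 0% and 0.00921% of all probes in labelled CA1, CA3 and DG. Unadjusted p-values under 0.05 came from 6, 2 and 0 channel probes (9.84%, 3.03% and 0%, against 8.36%, 2.19% and 2.14% of all). The smallest p-values were those of Scn1a (-0.23) and Scn4b (0.34) in labelled CA1 (adjusted p = 0.587), Kcns3 (-0.43) and Cacna1g (-0.59) in labelled CA3 (adjusted p = 0.884), and Kcnj4 (-0.28) in labelled DG (adjusted p = 0.999).

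**Figure D3:**
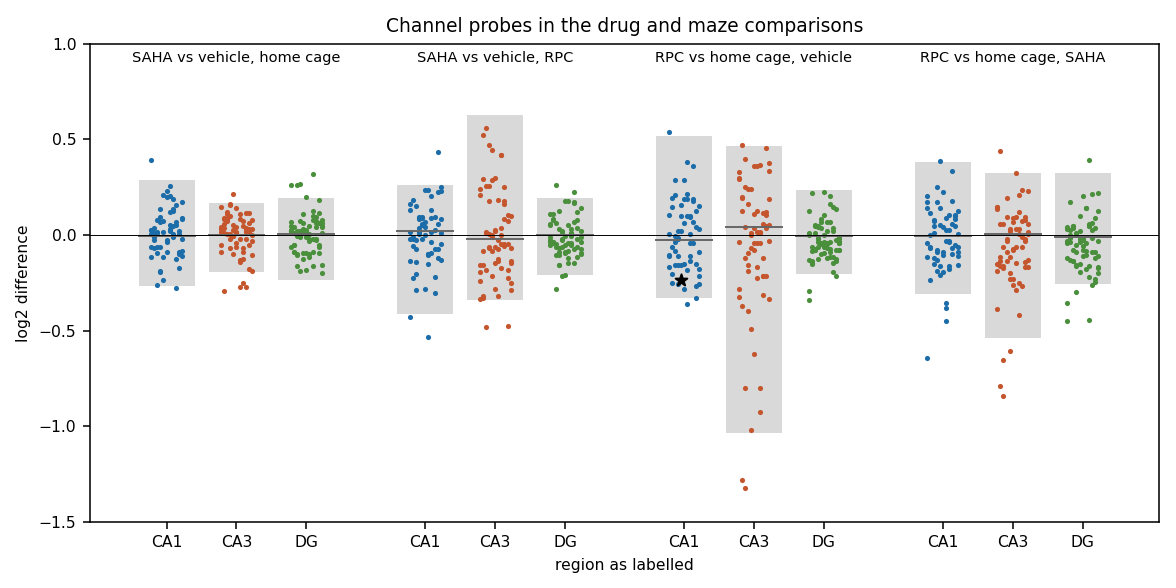
Log2 difference (vertical axis) of every tested channel probe (points) in the SAHA and maze contrasts of each region as labelled (horizontal axis); grey boxes span the middle 95% of all probes of the contrast, the grey line is their median, and the star is the one called probe, Kcnc1 (-0.23 in vehicle rats of labelled CA1). The widest spread is in vehicle rats of labelled CA3, from -1.32 to 0.47.

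The last comparisons ask how the channel genes differed between maze (RPC) and home cage rats. The immediate early genes, which neural activity induces within minutes, differed with the maze in vehicle rats: 6 of 11 were higher and 1 lower in labelled CA1 (median 0.54), 2 of 12 higher in labelled CA3 (median 0.33) and 8 of 12 higher in labelled DG (median 0.66). Among the channel probes, 1 of 61 (1.64%) was called in vehicle rats of labelled CA1, and it was lower in RPC rats, against 6.44% of all probes (3.98% lower). In SAHA rats of labelled CA1 0 of 61 were called, against 2.51% of all. In labelled CA3 0 of 66 were called in either drug group, against 0.0189% of all probes in vehicle and 0.0283% in SAHA rats. In labelled DG 0 of 70 were called in either, against 0.322% in vehicle and 1.45% in SAHA rats. The unadjusted p was under 0.05 for 6 and 8 channel probes in labelled CA1 (9.84% and 13.1%, against 23.8% and 15.5% of all), 12 and 3 in labelled CA3 (18.2% and 4.55%, against 19.8% and 3.95%) and 3 and 14 in labelled DG (4.29% and 20%, against 8.45% and 13.9%), for vehicle and SAHA rats in turn.

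The called gene was Kcnc1, the Shaw family channel of fast-firing neurons whose promoter is printed above. In labelled CA1 its level ran from 9.37 to 9.66 in vehicle home cage rats (median 9.53) and from 9.16 to 9.44 in vehicle RPC rats (median 9.28). Of the 7 RPC arrays, 5 lay below every home cage array. Kcnc1 fell by 0.23 on the log2 scale (SE 0.06, 1.18-fold, adjusted p = 0.0225). In SAHA rats of the same region its levels ran from 9.37 to 9.64 in home cage and from 9.25 to 9.49 in RPC rats, a difference of -0.16 that missed the threshold (adjusted p = 0.179). The interaction gave 0.07 (SE 0.09, adjusted p = 0.813), so the drug groups were not shown to differ. In vehicle rats of labelled CA3 and labelled DG the Kcnc1 difference was -0.04 in each, and the test among regions gave an adjusted p of 0.223.

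The Kcnc1 call was lost when arrays were scaled to a common median (difference -0.18, adjusted p = 0.539), and over all alternatives its adjusted p ran from 0.00279 to 0.539. Without the arrays of low correlation it was -0.24 (adjusted p = 0.0316). Between the same groups, 2 of 7 astrocyte markers were higher in RPC rats (median 0.13, sums of 15.47 to 15.72 in home cage and 15.62 to 15.77 in RPC rats) and 0 of 10 oligodendrocyte markers were called (12.99 to 13.58 against 12.84 to 14.44). Their part in the Kcnc1 difference was not tested.

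Other maze differences of the channel genes missed the threshold. In SAHA rats of labelled CA1 the smallest p-values were those of the sodium channel beta subunit Scn2b (-0.64, adjusted p = 0.0979), of Kcnmb4 (-0.24, adjusted p = 0.106) and of Scn1a (-0.21, adjusted p = 0.124). In SAHA rats of labelled DG they were those of Kcnab2 (-0.36, adjusted p = 0.122), Cacng4 (0.40, adjusted p = 0.136) and Scn2b (-0.45, adjusted p = 0.136). In vehicle rats of labelled DG Kcnab2 came first (-0.34, adjusted p = 0.331). Scn2b passed the threshold in SAHA rats of labelled CA1 without the arrays of low correlation (-0.75), together with Cacng7 (-0.54), Kcnj4 (0.32), Kcnip3 (-0.62) and Kcna4 (0.48). In vehicle rats of labelled CA1 Cacng7 (-0.56) and Scn3b (0.22) passed beside Kcnc1 without them. The genes in these last counts were named after their values were seen. Scn2b and Cacng7 were detected on 19 and 15 of the 28 arrays labelled CA1, so their differences there include values not above background.

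In vehicle rats of labelled CA3 the channel probes spread more widely than in any other contrast, from -1.32 to 0.47, as did all probes, of which the middle 95% lay between -1.04 and 0.46. None was called, and the smallest p-values were those of Kcns2 (-1.02), Kcnab2 (0.47) and Kcns3 (0.36), each with an adjusted p of 0.247. The median SD of the channel probes was 0.44 in vehicle RPC rats of labelled CA3 and 0.17 to 0.26 in the other 11 groups. Kcng2, Kcns2, Kcnh8, Cacng3 and Cacng8, named here for their common range, were low together on RPC arrays 3, 4, 6 and 7, of which 3, 4 and 6 are arrays of low correlation. Kcng2 ran from 7.21 to 7.73 in vehicle home cage and from 4.77 to 7.84 in vehicle RPC rats, where 3 of 7 arrays detected it. Cacng8 ran from 7.61 to 8.42 and from 5.21 to 8.67, and Kcnh8 from 5.94 to 6.84 and from 4.77 to 6.78, in the same groups. In each of these 3 genes the lowest RPC array lay below the whole home cage range, while other RPC arrays lay within or above it. In SAHA RPC rats, Kcng2 ran from 4.82 to 7.92 and Cacng8 from 5.43 to 8.85, so the wide range was present with the drug as well. Arrays 4 and 6 of that group are also arrays of low correlation, and their part in this range was not tested.

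An F test over all 84 arrays asked whether the maze difference was unequal among the 3 regions. In vehicle rats it called 3 of 72 channel probes (4.17%), against 5.52% of all probes, and in SAHA rats 0, against 0.0438% of all. At an unadjusted p under 0.05 the channel probes numbered 15 (20.8%, against 28.2% of all) in vehicle and 7 (9.72%, against 7.92% of all) in SAHA rats. The 3 genes were Kcnab2 (adjusted p = 0.0283), the calcium channel beta subunit Cacnb3 (adjusted p = 0.0376) and the silent subunit Kcng2 (adjusted p = 0.0466). For Kcnab2 the differences in labelled CA1, CA3 and DG were -0.09, 0.47 and -0.34. For Cacnb3 they were -0.11, 0.37 and -0.08. For Kcng2 they were 0.10, -1.32 and 0.14. For all 3 genes the sign in labelled CA3 was opposite to that in the other regions. The fit behind the F test takes 1 spread for all 12 groups. The median SD of channel probes was widest, at 0.44, in vehicle RPC rats of labelled CA3. In the fit of labelled CA3 alone, none of the 3 was called between RPC and home cage vehicle rats.

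In labelled CA3, Kcnab2 ran from 5.79 to 6.16 in vehicle home cage and from 6.20 to 7.30 in vehicle RPC rats, with every RPC array above every home cage array. The gene was chosen by the F test on these same arrays, and the share of all probes separated in this way was not counted. Kcnab2 was detected on 21 of the 28 arrays labelled CA3. Cacnb3 ran from 11.13 to 11.36 and from 11.15 to 12.28, and overlapped. Without the arrays of low correlation none of the 3 was called by the F test (adjusted p = 0.444 for Kcnab2, 0.897 for Cacnb3 and 0.636 for Kcng2), and the differences in labelled CA3 were 0.32, 0.03 and -0.45. In the same vehicle home cage and RPC groups of labelled CA3, the log2 summed levels of granule cell markers ran from 11.41 to 11.61 and from 11.52 to 12.18, of interneuron markers from 12.80 to 13.36 and from 13.00 to 13.57, and of CA3 markers from 14.45 to 14.66 and from 14.38 to 14.71, with 0 markers of these lists called. Their part in these differences was not tested.

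**Figure D4:**
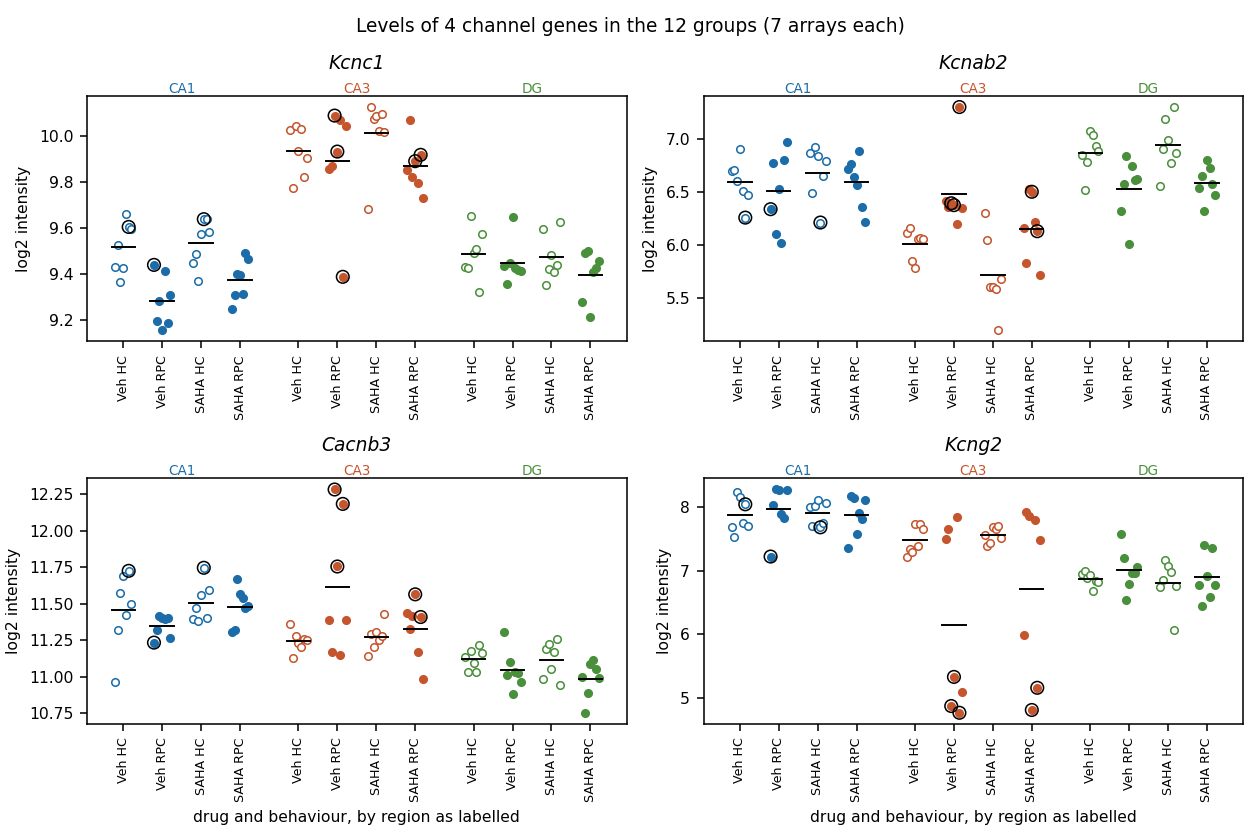
Level (log2 intensity, vertical axis) of Kcnc1, Kcnab2, Cacnb3 and Kcng2 in the 12 groups of drug and behaviour by region as labelled (horizontal axis, 7 arrays each); open points are home cage and filled points RPC rats, black lines are group means and black rings the arrays of low correlation. Kcnc1 in vehicle rats of labelled CA1 runs from 9.37 to 9.66 in home cage and from 9.16 to 9.44 in RPC rats, and Kcng2 in vehicle RPC rats of labelled CA3 reaches down to 4.77.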

How the data were processed

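Gene expression in 3 hippocampal regions of 28 rats was measured on 84 Illumina arrays, 7 in each of 12 groups taken from the labels. GenomeStudio 2011.1 is the tool named per the submitters' processing notes. Bead summary, treatment of background and slide are not given in the sources used, so no fit with the slide as a block was run. The authors' deposited signal table holds intensity values on a linear scale, from 36 to 41948. Per the file headers, a detection p-value stands beside each signal. In the deposited p-value columns 0.01 was read as 0: 29.8% of entries had it, and the smallest other value was 0.0012. The deposited score is a z-score of the log10 signal within each array, and recomputing it from the signal gave a largest difference of 0.0130. Scaling each array in this way sets all arrays to 1 spread.

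The normexp model (offset 16) corrected the background of the signal, and log2 values were quantile normalized with limma 3.58.1 in R 4.3.3 (and data.table version 1.17.8). Quantile normalization removes a shift shared by most probes, and an offset makes differences between dim probes smaller. Probes detected at p under 0.01 on at least 7 arrays were tested, of 28 within a region (9919, 10594 and 10858 probes in labelled CA1, CA3 and DG) and of 84 between regions. A limma fit (lmFit, eBayes with a trend) of the 4 groups of a region gave the drug, maze and interaction contrasts, and fits of all 84 arrays gave the region differences and F tests. Calls were made at a Benjamini-Hochberg adjusted p under 0.05. Within a region every array is another rat, so its p-values measure the spread between rats, and the number of arrays limits the precision. The 3 arrays of a rat were not tied together in the region fits, since the labels do not say that a replicate number is a rat. The mean correlation of deviations of same-numbered arrays ran from -0.21 to 0.23 over 18 pairs of groups within a region and from -0.09 to 0.13 over 12 pairs of regions. These values do not settle whether a number marks 1 rat, since arrays of 1 rat may share little of their deviations. The fits were checked on simulated data. The members, lists, tests and alternatives were chosen with earlier results of these data known. The genes named were, per contrast within a region, up to 6 called rises and 6 falls (or the 3 smallest p where none was called), up to 8 in each direction per pair of regions and up to 5 per F test, each from its brightest probe, plus 28 channel genes. Other members were named after their values were seen, to account for each. Kcnq3 was detected on no array. Some genes are not reported here. Alternatives were the z-scores, no background correction, median scaling, array weights, detection on every array, a block for the replicate number, 1 fit of all arrays for the contrasts within regions, and leaving out the arrays of low correlation. Leaving out each replicate in turn was not part of them, since groups held 7 arrays.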

Additional observations from a re-analysis of the deposited data

Results flagged for a closer look

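The levels of Kcnc1, Kcnab2, Cacnb3 and Kcng2 were examined for outlying arrays in 48 sets of 7 values (4 genes in 12 groups), and 6 sets held 1. Chance flags about 1 in 20 independent sets, but sets of the same group share their arrays, so the counts are not compared. Kcnc1 was at 9.68 on array 1 of the SAHA home cage group of labelled CA3, with the nearest other array at 10.02. It was at 9.39 on array 6 of the vehicle RPC group of labelled CA3 (nearest 9.86), and at 9.65 on array 4 of the vehicle RPC group of labelled DG (nearest 9.45). Kcnab2 was at 7.30 on array 6 of the vehicle RPC group of labelled CA3, with the nearest at 6.42. Kcng2 was at 6.06 on array 6 of the SAHA home cage group of labelled DG (nearest 6.74) and at 7.22 on array 1 of the vehicle RPC group of labelled CA1 (nearest 7.83). Array 6 of the vehicle RPC group of labelled CA3 and array 1 of the vehicle RPC group of labelled CA1 are arrays of low correlation.

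The maze difference of vehicle rats differed among the 3 regions by the F test of limma for Kcnab2 (adjusted p = 0.0283), Cacnb3 (adjusted p = 0.0376) and Kcng2 (adjusted p = 0.0466), and for none of the 3 without the arrays of low correlation.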

How the results depend on the processing

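The counts of called channel probes between regions moved by over 1.5 times under 1 alternative, the filter on detection on every array, which left 35 channel probes to test and called 26, 26 and 29 of them (81%, 76.8% and 75.8% of all probes tested). In vehicle rats of labelled CA1 the count of maze calls (1) became 0 under median scaling, 6 with array weights and 3 without the arrays of low correlation, where 1.25%, 13.8% and 4.95% of all probes were called. In SAHA rats of labelled CA1 the count (0) became 5 with array weights, 5 without those arrays and 1 with the replicate block (Scn2b, -0.64, adjusted p = 0.0417), beside 9.25%, 5.57% and 2.53% of all probes. The replicate block moved no other count of calls by over 1.5 times. In vehicle rats of labelled CA3 the count (0) became 4 with array weights (4.05% of all probes) and 14, 7 higher and 7 lower, in 1 fit of all 84 arrays (22.2% of all probes). In that fit the replicate number within a drug and behaviour group was a random block across regions (consensus correlation -0.01). It takes 1 spread for all groups. The F test in vehicle rats (3) gave 1 with z-scores, 0 under median scaling, 1 with detection on every array, 11 with array weights and 0 without the arrays of low correlation, beside 3.21%, 0.0526%, 7.23%, 15.5% and 0.0175% of all probes. In SAHA rats (0) it gave 3 with array weights and 1 without those arrays (Kcnj4, adjusted p = 0.0415), beside 3.6% and 1.39%. The counts of SAHA and interaction calls stayed at 0 under every alternative run. The named leading members of each comparison kept their sign under the alternatives, while smaller differences between regions turned under a scaling, among them those of Kcnk1, Cacna1c and Cacna2d1 under median scaling and of Scn3b with z-scores. The higher and lower calls between regions were 21 and 42, 19 and 36, and 32 and 23 under median scaling, and 29 and 29, 24 and 32, and 24 and 31 with z-scores, for labelled CA1 against CA3, CA1 against DG and CA3 against DG. The cause of these changes was not tested. Probes detected on few arrays, such as Kcnb2, Kcnj8 and Kcnk3, are limited by their signal over background.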
